A study of Homo sapiens with 36 samples.

Results

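The metal-responsive transcription factor MTF1 and 9 zinc transporters (SLC30A1, SLC30A5, SLC30A10, SLC39A4, SLC39A5, SLC39A6, SLC39A8, SLC39A10 and SLC39A14) were followed in the human colorectal adenocarcinoma lines Caco-2 and HT-29. The genes were taken by symbol from the mRNA count table, in which all 10 were present among 60591 genes. Polyadenylated RNA was sequenced from 18 cultures, which formed 6 groups of 3 biological replicates per the series description: control, cobalt chloride (CoCl2) and an oxyquinoline derivative (OD, compound 4896-3212), each in both lines. CoCl2 was given at 300 µM and OD at 5 µM, both for 24 h, so the doses of the treatments differ and no dose was shared between them. Control and OD medium held 0.5 µl DMSO per ml per the labels. The labels state no DMSO for the CoCl2 medium, whereas the study's methods for Caco-2 state one, and at a concentration other than the labels' for the controls, so neither the solvent of the CoCl2 medium nor the DMSO dose was settled by the sources used here. Both compounds are used to mimic hypoxia chemically by stabilising hypoxia-inducible factor (HIF). Caco-2 cells had been held in differentiation conditions for 21 days and HT-29 cells had not, and the 2 lines grew in different media. Cell line, differentiation and medium therefore cannot be told apart in any comparison between the lines.

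Zinc enters the cytosol through ZIP proteins, the SLC39 family, and leaves it across the plasma membrane or into organelles through ZnT proteins, most of the SLC30 family. MTF1 senses free zinc, binds short DNA motifs called metal response elements (MREs), and is known to induce the metallothioneins, which are small metal-binding proteins, and the exporter SLC30A1. In the intestine, SLC39A4 takes up dietary zinc at the apical membrane of enterocytes, SLC39A5 lies on their basolateral side, and SLC30A1 releases zinc toward the blood.

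Promoters were searched because MTF1 and HIF act through short motifs near start sites. The reference promoter table (RefSeq, build GRCh38.p14), which spans 250 bases before to 50 bases after each start, held 8 of the 10 genes with 13 start sites. SLC39A4 and SLC39A14 were not among them. MRE letters were TGCACNC or TGCGCNC on either strand, and HIF response element (HRE) letters were ACGTG or GCGTG on either strand. The SLC30A1 promoter, on chromosome 1, is printed because it was the one member promoter with more than 1 MRE match, at -49 to -43 and at +25 to +31 from the start. It also held 3 HRE matches. Of all 35116 promoters, 29.6% held at least 1 MRE match and 8.6% at least 2, while 48.4% held at least 1 HRE match and 10.1% at least 3. The 150 bases before the SLC30A1 start (chr1:211579162-211579311, minus strand, read 5′ to 3′) carry in capitals, in order, the HRE letters on each strand and the first MRE, read here on the reverse strand.
SLC30A1: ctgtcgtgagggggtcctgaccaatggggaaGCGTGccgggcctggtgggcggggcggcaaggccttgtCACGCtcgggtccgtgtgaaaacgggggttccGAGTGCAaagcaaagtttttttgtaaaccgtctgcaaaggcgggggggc
The SLC30A5 promoter, on chromosome 5, is printed because it alone among the member promoters held the paired letters of a zinc transcriptional regulatory element (ZTRE), CACTCC followed by GGAGTG within 50 bases. They were separated by 4 bases at -50 to -35, and 49 of the 35116 promoters (0.14%) held such a pair. The stretch chr5:69093841-69093990 (plus strand) shows an HRE match and then both ZTRE parts in capitals.
SLC30A5: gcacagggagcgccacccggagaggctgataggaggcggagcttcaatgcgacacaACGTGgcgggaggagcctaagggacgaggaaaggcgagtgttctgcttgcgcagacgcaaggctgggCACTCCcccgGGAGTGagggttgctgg
Among the other members, 1 start site each of SLC39A5, SLC39A6, SLC39A8 and SLC39A10 held 1 MRE match. MTF1, SLC30A5 and SLC30A10 held no MRE match in these windows. HRE matches were not particular to SLC30A1. An SLC39A8 start site also held 3, and MTF1, SLC30A5 and an SLC30A10 start site held 2 each. Such matches describe letters and not bound sites.

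Library totals lay between 12925719 and 22332639 counts. All 8 intestinal epithelium markers exceeded 3 counts in every group, with a summed level of 5706 to 5857 CPM (counts scaled to a common library total) in Caco-2 control and 5132 to 5164 in HT-29 control. The 6 enterocyte markers summed to 3501 to 3888 CPM in Caco-2 control and to 162 to 167 in HT-29 control. Markers also moved with treatment. With CoCl2 in Caco-2, 4 of 6 enterocyte markers fell and 1 rose, while 1 of 8 epithelial markers fell and 7 rose. In HT-29, 2 of 8 epithelial markers fell and 6 rose. There 2 of 4 tested enterocyte markers fell and 1 rose. Of all genes tested, 64.7% rose or fell with CoCl2 in Caco-2 and 82.8% in HT-29. SI stood at 289 ± 38.1 CPM (SD, n = 3) in Caco-2 control and 114.8 ± 18.8 with CoCl2. APOA1 stood at 2545 ± 163 and 3721 ± 405 CPM in those groups, and EPCAM at 804 ± 46.3 and 1372 ± 90.1. VIL1 was the epithelial marker that fell in Caco-2. It stood at 796 ± 24.2 and 443 ± 19.99 CPM in those groups, and at 205 ± 3.00 and 33.6 ± 2.96 in HT-29. In HT-29 the other epithelial marker to fall was CDX2, from 12.8 ± 1.52 to 4.63 ± 0.255 CPM. With CoCl2 the summed enterocyte level was 4491 to 5103 CPM in Caco-2 and 192 to 204 in HT-29. With OD those sums were 3820 to 4168 and 131 to 135 CPM. In Caco-2 with OD, 1 of 6 enterocyte markers fell and 1 rose, and 6 of 8 epithelial markers rose. In HT-29 with OD, 3 of 4 tested enterocyte markers fell and 1 rose, while 2 of 8 epithelial markers fell and 5 rose. Of all genes tested, 50.4% rose or fell with OD in Caco-2 and 68.8% in HT-29. VIL1 stood at 92.5 ± 3.84 CPM with OD in HT-29. The part of these changes in the results for the transporters was not tested. Libraries of a line were scaled to each other by TMM (trimmed mean of M-values) to give CPM. A gene was said to rise or fall where it passed a false discovery rate (FDR) of 0.05 in edgeR's quasi-likelihood test, with Benjamini-Hochberg adjustment over all genes tested, and was called where its log2 fold change also exceeded 1 in size. In bulk RNA, fewer cells of a type and less RNA per cell cannot be told apart.

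In untreated cells the transporters covered a range of levels that differed strongly between the lines. In RPKM, which scales reads by gene length, SLC39A14 (86.1 ± 3.37, SD, n = 3) and SLC39A5 (70.6 ± 5.16) led in Caco-2. SLC39A14 imports zinc, iron and manganese, and no Caco-2 control library placed another member between these genes and SLC30A1 (15.99 ± 2.36). SLC30A5, SLC39A10, SLC39A6, SLC39A4 and MTF1 followed, of which only SLC39A6 and SLC39A4 overlapped as neighbours. SLC39A8 (0.954 ± 0.196) and SLC30A10 (0.659 ± 0.0732) were lowest in Caco-2. In HT-29 the first places went to SLC39A6 (15.6 ± 0.534) and SLC39A14 (14.01 ± 0.755). SLC30A1 and SLC30A5 overlapped next in that order, as did SLC39A10 and MTF1, and the lowest pair SLC39A4 and SLC39A8. SLC30A10, which exports manganese, is listed at 0 RPKM in HT-29, where its libraries held 0 to 3 counts. The RPKM values were scaled separately within each line, so orders and not levels are set side by side here.

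**Figure D1:**
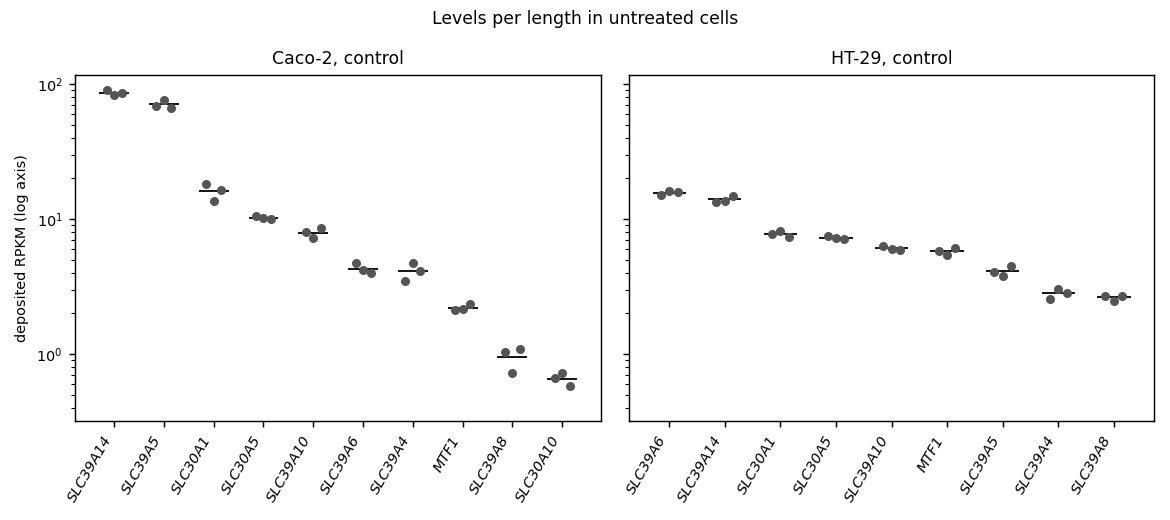
Deposited RPKM (log axis) of each gene in the 3 control libraries of Caco-2 (left) and HT-29 (right), with points for libraries and bars for means, ordered by mean. SLC39A14 and SLC39A5 stand above the other genes in Caco-2, whereas the 9 genes shown for HT-29 span from 2.63 to 15.6; SLC30A10, listed at 0 in HT-29, is not drawn there.

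The control groups were compared in a fit of all 18 libraries. In this fit, which has no replicate term, all 10 genes differed between HT-29 and Caco-2 at an FDR under 0.05, beside 79.1% of all genes tested, and 6 were called, beside 45.8%. MTF1 was 2.76-fold higher in HT-29 (log2 difference 1.46, SE 0.08, edgeR FDR 1.7e-17). SLC39A6, a plasma membrane importer, was 3.82-fold higher and SLC39A8, an importer of zinc, manganese and cadmium, 2.89-fold higher. In the other direction, SLC39A5 was 16.2-fold lower in HT-29 (log2 difference -4.02, SE 0.10) and SLC39A14 was 5.83-fold lower (log2 difference -2.54, SE 0.07). SLC30A10 had 99, 94 and 73 counts in the Caco-2 control libraries and 1, 0 and 3 in HT-29, so no fold is given for it. SLC30A1 (log2 difference -0.97), SLC39A4 (-0.46), SLC30A5 (-0.42) and SLC39A10 (-0.31) were lower in HT-29 without being called. SLC30A1 was called with DESeq2 (-1.04) and without the Caco-2 control replicate 2 (-1.08) or the HT-29 control replicate 2 (-1.003).

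With CoCl2, MTF1 and SLC30A1 rose and SLC39A5, SLC39A8 and SLC39A10 fell in both lines. With OD, MTF1 rose in Caco-2, SLC30A5 rose and SLC39A8 fell in HT-29, and SLC39A10 fell in Caco-2 and rose in HT-29. SLC30A10 in Caco-2 and SLC30A1, SLC39A5 and SLC39A14 in HT-29 also passed the FDR with OD, but not in every alternative run. In Caco-2 with CoCl2, 4 of 10 genes were called (MTF1 and SLC30A1 higher, SLC30A10 and SLC39A10 lower), beside 23.4% of all 16034 genes tested, and 7 passed the FDR, beside 64.7%. In HT-29 with CoCl2, 4 of the 9 genes tested were called (MTF1 and SLC30A1 higher, SLC39A8 and SLC39A10 lower), beside 41.3% of 15812 genes, and 8 passed the FDR, beside 82.8%. With OD no member was called in either line, beside 11.7% of genes in Caco-2 and 17.1% in HT-29. By edgeR's FDR alone, 3 members passed with OD in Caco-2 (beside 50.4%) and 6 of 9 in HT-29 (beside 68.8%). The share of members called was above that background with CoCl2 in Caco-2 and close to it in HT-29, and neither share was tested. The median log2 fold change of the members in Caco-2 was -0.07 for CoCl2 and -0.03 for OD, beside -0.03 and -0.02 over all genes, and in HT-29 -0.57 and -0.05, beside -0.03 and 0.01. The TMM factors differed by treatment. Scaling by library totals alone moved the median of all genes in Caco-2 by -0.32 for CoCl2 and -0.15 for OD, and in HT-29 by -0.63 and -0.14. Under that scaling the calls with CoCl2 went from 2 higher and 2 lower to 1 higher and 3 lower in Caco-2, where MTF1 was lost and SLC39A8 (-1.20) gained. In HT-29 they went from 2 higher and 2 lower to 1 higher and 5 lower, where MTF1 was lost and SLC39A4 (-1.61), SLC39A5 (-1.32) and SLC39A14 (-1.21) were gained. With limma on the deposited log2(RPKM + 1) values, a scale that understates changes of low genes, MTF1 (0.80 and 0.93 with CoCl2 in Caco-2 and HT-29), SLC30A10 (-0.36 in Caco-2) and SLC39A8 (-0.83 in HT-29) passed the FDR without being called.

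**Figure D2:**
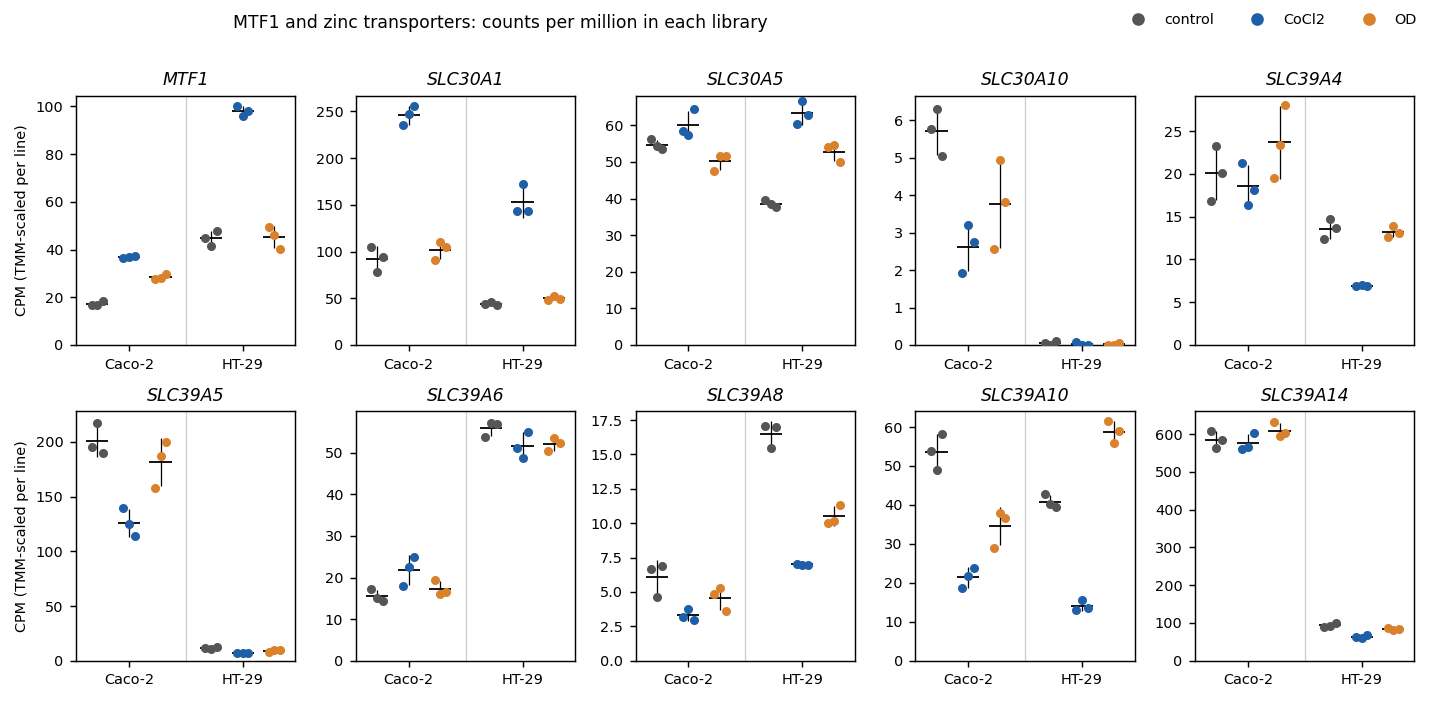
CPM (TMM-scaled within each line) of the 10 genes in each of the 18 libraries, with points for libraries, horizontal bars for group means and vertical bars for the SD (n = 3). The CoCl2 libraries lie above their controls for MTF1 and SLC30A1 and below them for SLC39A10 in both lines, whereas the OD libraries for SLC39A10 lie below control in Caco-2 and above it in HT-29.

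The MTF1 transcript rose with CoCl2 in both lines, and with OD it rose in Caco-2. In Caco-2 it stood at 16.6, 16.8 and 18.5 CPM in the controls, at 36.5, 36.9 and 37.4 with CoCl2 and at 27.6, 28.0 and 29.6 with OD. The 3 groups did not overlap, and OD lay between control and CoCl2. CoCl2 raised it 2.14-fold (log2 fold change 1.10, SE 0.10, edgeR FDR 5.1e-10) and OD 1.64-fold (0.72, SE 0.10, FDR 1.5e-06). In HT-29 it stood at 45.0, 41.6 and 47.6 CPM in the controls, at 100.3, 96.1 and 97.9 with CoCl2 and at 49.3, 46.3 and 40.3 with OD. CoCl2 raised it 2.19-fold (1.13, SE 0.06, FDR 2.7e-15), whereas the OD libraries overlapped the controls (0.01, 95% confidence interval -0.12 to 0.15, FDR 0.86). Scaled by library totals alone, the CoCl2 values were 0.77 in Caco-2 and 0.50 in HT-29, both past the FDR and neither called.

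SLC30A1, the zinc exporter of the plasma membrane and the classical transporter target of MTF1, had the largest positive fold change of the 10 genes with CoCl2 in either line. Its Caco-2 libraries held 104.9, 77.9 and 94.3 CPM in the controls, 235, 247 and 256 with CoCl2, and 90.7, 110.3 and 105.3 with OD. The CoCl2 libraries were all far above the others, and the OD libraries overlapped the controls. The rise with CoCl2 was 2.66-fold (log2 fold change 1.41, SE 0.09, edgeR FDR 2.6e-12), against 0.14 with OD (95% confidence interval -0.05 to 0.34, FDR 0.20). In HT-29 the values were 43.96, 46.5 and 42.4 CPM in the controls, 143, 172 and 144 with CoCl2, and 48.1, 52.7 and 49.7 with OD. CoCl2 raised SLC30A1 3.46-fold there (1.79, SE 0.06, FDR 1.7e-19), and per length it became the first of the 10 genes in HT-29 at 25.1 ± 2.64 RPKM (SD, n = 3). With OD it rose 1.13-fold (0.18, SE 0.07, FDR 0.019). That difference missed the FDR with library totals alone (0.046, FDR 0.56), in the fit of all 18 libraries (FDR 0.12), with limma (0.084) and with DESeq2 (0.054). The same held without the HT-29 control replicate 3 (0.094) or the OD replicate 2 (0.081). The SLC30A1 promoter, printed above, held 2 MRE and 3 HRE matches, and an SLC39A8 start site also held 3 HRE matches. Any part of these letters in the change was not tested.

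The remaining SLC30 members differed from SLC30A1 and from each other. SLC30A5, which loads zinc into the early secretory pathway, held 56.2, 54.3 and 53.5 CPM in Caco-2 control, 58.5, 57.4 and 64.5 with CoCl2, and 47.4, 51.7 and 51.7 with OD. Both treated groups lay just outside the control range, on opposite sides, but neither difference passed the test (log2 fold changes 0.14 and -0.12, edgeR FDR 0.14 and 0.22). In HT-29 it rose with both treatments, from 39.6, 38.4 and 37.7 CPM to 60.3, 66.7 and 62.8 with CoCl2 and to 54.0, 54.5 and 50.0 with OD. The rise was 1.64-fold with CoCl2 (0.72, SE 0.06, FDR 6.6e-12) and 1.37-fold with OD (0.46, SE 0.06, FDR 6.6e-08). Scaled by library totals alone, the CoCl2 value in HT-29 was 0.08 (FDR 0.17). SLC30A10 could be tested in Caco-2 only, at 5.76, 6.31 and 5.05 CPM in the controls, 1.92, 3.20 and 2.76 with CoCl2, and 2.56, 4.92 and 3.81 with OD. It fell to 0.465 of control with CoCl2 (-1.10, SE 0.23, FDR 0.00021) from counts of 73 to 99 per control library. The CoCl2 value was -0.94 without the CoCl2 replicate 1, under the call. Its fall with OD (-0.59, SE 0.22, FDR 0.027) missed the FDR without either of control replicates 1 and 2 or OD replicates 1 and 3 (FDR 0.053 to 0.143). In HT-29 it had 0 to 3 counts per library in all groups, at or under a floor of 3 counts (0.134 to 0.232 CPM), and was not tested.

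Among the importers, SLC39A10 had the largest fold change with CoCl2 in both lines and with OD in Caco-2. SLC39A10 is a plasma membrane importer closely related to SLC39A6. In Caco-2 it held 54.0, 49.0 and 58.2 CPM in the controls, 18.6, 21.7 and 23.9 with CoCl2, and 29.0, 38.0 and 36.8 with OD. The 3 groups did not overlap and OD again lay between control and CoCl2. It fell to 0.401 of control with CoCl2 (log2 fold change -1.32, SE 0.11, edgeR FDR 2.7e-10) and to 0.644 with OD (-0.63, SE 0.11, FDR 2.8e-05). In HT-29 it held 42.7, 40.2 and 39.6 CPM in the controls, 13.1, 15.5 and 13.7 with CoCl2, and 61.5, 56.0 and 59.1 with OD. CoCl2 lowered it to 0.347 of control (-1.53, SE 0.07, FDR 1.5e-16), whereas OD raised it 1.44-fold (0.53, SE 0.06, FDR 7.8e-09). Each of these directions was kept in every alternative run, with OD values from -0.79 to -0.52 in Caco-2 and from 0.39 to 0.57 in HT-29.

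SLC39A6, its relative, moved less. Its Caco-2 libraries held 17.2, 15.02 and 14.4 CPM in the controls, 17.998, 22.5 and 24.9 with CoCl2, and 19.4, 16.03 and 16.5 with OD. It rose 1.41-fold with CoCl2 in Caco-2 (log2 fold change 0.49, SE 0.13, edgeR FDR 0.0015), or 0.17 (FDR 0.23) when scaled by library totals alone. In HT-29 its libraries lay between 48.6 and 57.1 CPM in all 3 groups, and neither treatment passed the test (-0.12 with CoCl2, FDR 0.056, and -0.10 with OD, FDR 0.092). With CoCl2 in HT-29 it passed in 7 alternatives, all toward lower levels, and reached -0.75 with library totals alone.

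SLC39A8 and SLC39A14 are a related pair that also carries manganese and iron or cadmium. SLC39A8 was lowered by CoCl2 in both lines. It held 6.64, 4.63 and 6.92 CPM in Caco-2 control, 3.17, 3.78 and 2.97 with CoCl2, and 4.84, 5.28 and 3.60 with OD. The CoCl2 libraries were all under the controls (log2 fold change -0.88, SE 0.21, edgeR FDR 0.00066, called at -1.04 without the control replicate 2) and the OD libraries overlapped them (-0.40, 95% confidence interval -0.81 to 0.0045, FDR 0.092). The OD value passed with library totals alone (-0.56, FDR 0.024), without the control replicate 2 (-0.56, FDR 0.033) and in the fit of all 18 libraries (-0.40, FDR 0.038). In HT-29 the values were 17.0, 15.5 and 17.0 CPM in the controls, 7.02, 6.98 and 6.996 with CoCl2, and 9.99, 10.2 and 11.3 with OD. It fell to 0.424 of control with CoCl2 (-1.24, SE 0.10, FDR 1.1e-11) and to 0.636 with OD (-0.65, SE 0.09, FDR 2.9e-07). Compared directly between the lines, neither of its responses differed past the FDR (-0.46, FDR 0.085 for CoCl2, and -0.27, FDR 0.30 for OD).

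SLC39A14, the most abundant of the 10 genes per length in Caco-2, stayed between 562 and 632 CPM in all 9 Caco-2 libraries. Neither treatment passed the test there (-0.02 with CoCl2, 95% confidence interval -0.17 to 0.12, and 0.06 with OD, -0.09 to 0.20). Scaled by library totals alone, the CoCl2 value passed the test at -0.34 (FDR 6.3e-05). In HT-29 it held 90.7, 91.9 and 100.2 CPM in the controls, 62.3, 59.5 and 69.1 with CoCl2, and 87.0, 80.7 and 84.2 with OD. It fell to 0.673 of control with CoCl2 (log2 fold change -0.57, SE 0.06, edgeR FDR 8.7e-10), and was called at -1.21 with library totals alone. The smaller fall with OD (-0.17, SE 0.06, FDR 0.0085) missed the FDR without the control replicate 3 (0.061) or the OD replicate 2 (0.063).

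The intestinal pair SLC39A4 and SLC39A5 completed the importers. SLC39A5 held 195, 217 and 190 CPM in Caco-2 control, 139, 125 and 114 with CoCl2, and 158, 187 and 200 with OD. It fell to 0.626 of control with CoCl2 (log2 fold change -0.68, SE 0.09, edgeR FDR 4.9e-07), and the OD libraries overlapped the controls (-0.15, FDR 0.18). In HT-29 it held 11.4, 10.6 and 12.7 CPM in the controls, 7.39, 7.40 and 6.91 with CoCl2, and 8.17, 10.2 and 9.68 with OD. It fell there to 0.623 of control with CoCl2 (-0.68, SE 0.12, FDR 5.9e-06), and was called at -1.32 with library totals alone. Its fall with OD in HT-29 (-0.32, SE 0.10, FDR 0.0089) missed the FDR without the control replicate 3 (0.076) or the OD replicate 1 (0.072). SLC39A5 overlaps the protein-coding gene ANKRD52 on the opposite strand, and SLC39A4 and SLC30A5 each overlap a long noncoding RNA gene there. MTF1, SLC30A10, SLC39A10 and SLC39A14 overlap pseudogenes or a small RNA gene on the opposite strand. The strand setting of the counting was not given in the sources used here. SLC39A4, the apical importer, held 16.9, 23.2 and 20.1 CPM in Caco-2 control, 21.2, 16.3 and 18.1 with CoCl2, and 19.5, 23.4 and 28.1 with OD, and all 3 groups overlapped. Neither treatment passed the test there (-0.11 with CoCl2, FDR 0.49, and 0.24 with OD, FDR 0.14). SLC39A4 did pass with CoCl2 under library totals alone (-0.43, FDR 0.013) and with OD without the OD replicate 1 (0.36, FDR 0.030). In HT-29 it fell from 12.4, 14.8 and 13.6 CPM to 6.87, 6.98 and 6.91 with CoCl2 (log2 fold change -0.98, SE 0.11, FDR 2.8e-09), and was called without the control replicate 1 (-1.04), with no filter (-1.03), in the fit of all 18 libraries (-1.08) and with library totals alone (-1.61). The OD libraries, at 12.7, 13.9 and 13.04 CPM, overlapped the HT-29 controls (-0.05, FDR 0.64).

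**Figure D3:**
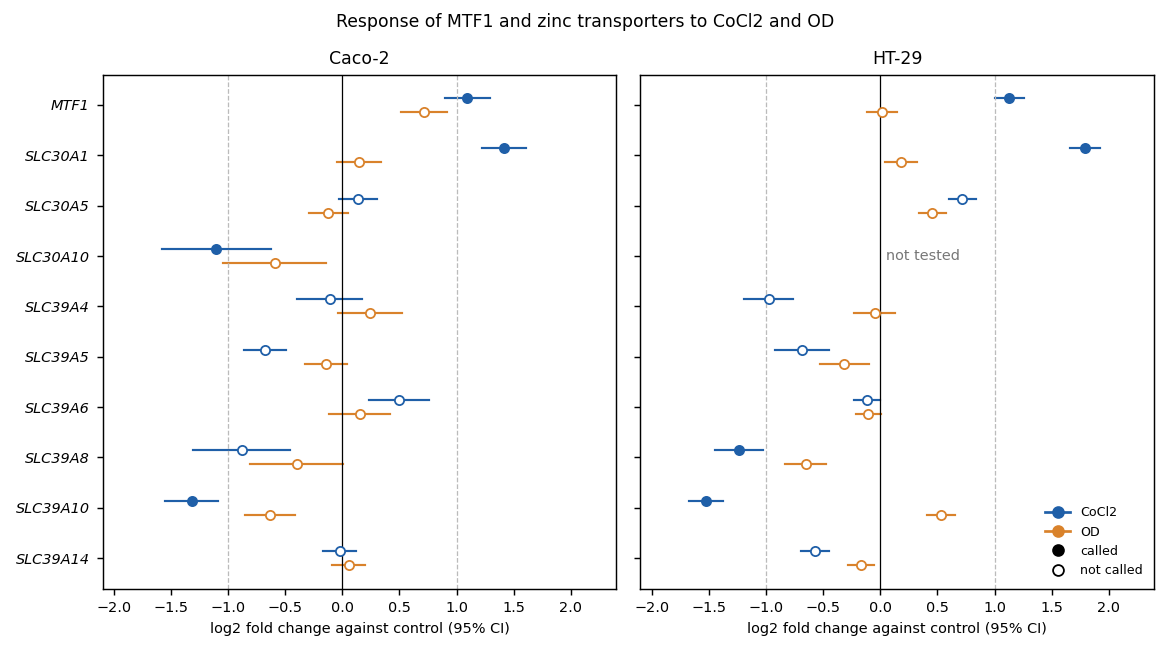
Log2 fold change against control with its 95% confidence interval for each gene, with CoCl2 in blue and OD in orange, in Caco-2 (left) and HT-29 (right). Filled points are called (FDR under 0.05 and log2 fold change over 1 in size, dashed lines) and all belong to CoCl2; SLC30A10 was not tested in HT-29.

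Set directly against each other at these doses, the treatments differed most for SLC30A1 and, in HT-29, for SLC39A10. In Caco-2 only SLC30A1 was called, 2.41-fold higher with CoCl2 than with OD (log2 difference 1.27, SE 0.09, edgeR FDR 6.8e-11), beside 11.7% of all genes tested. MTF1 was 1.30-fold higher with CoCl2 (0.38, FDR 0.0014), and SLC39A10 (-0.68, FDR 2.3e-05) and SLC39A5 (-0.53, FDR 2.8e-05) were lower with it. In total 7 members passed the FDR, beside 49.6%. In HT-29 3 members were called, beside 29.9%, and 8 passed the FDR, beside 77.7%. SLC39A10 was 4.16-fold lower with CoCl2 than with OD (-2.06, SE 0.07, FDR 2.0e-19), SLC30A1 was 3.05-fold higher (1.61) and MTF1 2.17-fold higher (1.12). In HT-29 MTF1 was not called with library totals alone (0.62) or with limma on the deposited values (0.94), and in Caco-2 it missed the FDR with library totals (0.061). With library totals SLC39A4 (-1.42) and SLC39A8 (-1.08) were called lower in HT-29, so that 2 higher and 1 lower became 1 higher and 3 lower. SLC30A5 in HT-29 turned from 0.26 to -0.24 with library totals. The comparisons of each line share their control and treated libraries and are not independent of each other.

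The responses of the lines were compared as the HT-29 log2 response minus the Caco-2 log2 response in the fit of all 18 libraries. For CoCl2 no member was called, beside 21.6% of genes, and 4 passed the edgeR FDR, beside 49.8%. The response was lower in HT-29 for SLC39A4 (-0.97, SE 0.19, FDR 4.9e-05), SLC39A6 (-0.72, SE 0.13, FDR 2.5e-05) and SLC39A14 (-0.66, SE 0.09, FDR 2.8e-07), and higher for SLC30A5 (0.47, SE 0.10, FDR 0.00013). SLC39A4 was called with library totals alone (-1.17). It was also called without the Caco-2 control replicate 2 (-1.09), the Caco-2 CoCl2 replicate 2 (-1.05) or the HT-29 control replicate 1 (-1.04). The median over all 17921 genes in this comparison was -0.13. MTF1 (-0.07, 95% confidence interval -0.30 to 0.15) and SLC30A1 (0.27, 0.02 to 0.52, FDR 0.063) did not pass. MTF1 passed with library totals alone (-0.28, FDR 0.040). SLC30A1 passed with DESeq2 (0.37, FDR 0.012), without the Caco-2 control replicate 2 (0.38, FDR 0.0069) and without the HT-29 CoCl2 replicate 1 (0.32, FDR 0.042). SLC39A8 (-0.46, FDR 0.085) and SLC39A10 (-0.32, FDR 0.060) did not pass either. Both passed with library totals alone (-0.66, FDR 0.013, and -0.53, FDR 0.0033) and in some runs without a single replicate.

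For OD 1 member was called, beside 15.2% of genes, and 4 passed the FDR, beside 42.9%. SLC39A10 was the called gene, with a response 1.15 log2 units higher in HT-29 (SE 0.13, edgeR FDR 3.3e-09). The MTF1 response to OD was lower in HT-29 in the same fit (-0.72, SE 0.11, FDR 3.6e-06), and that of SLC30A5 was higher (0.56, SE 0.10, FDR 1.4e-05). The difference for SLC39A14 (-0.24, FDR 0.030) missed the FDR without Caco-2 control replicate 2, HT-29 control replicate 3 or HT-29 OD replicate 2 or 3 (0.054 to 0.1105). SLC30A1 differed by 0.02 (95% confidence interval -0.23 to 0.27).

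**Figure D4:**
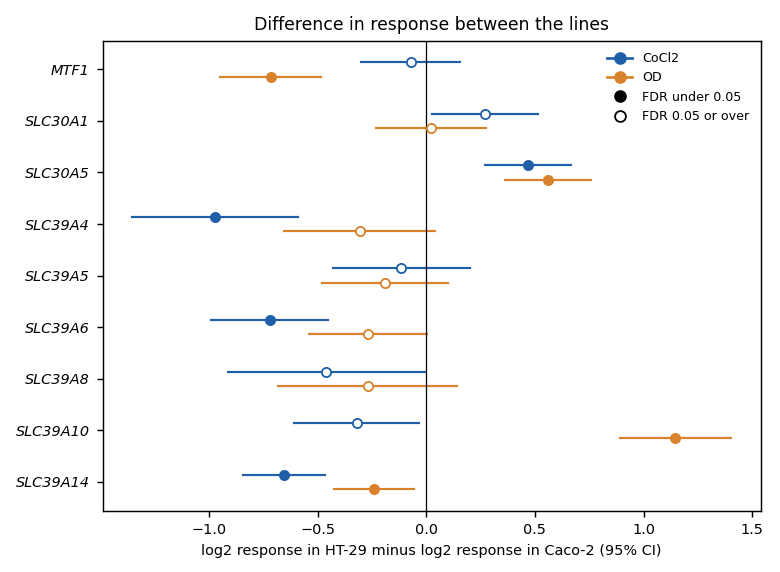
HT-29 response minus Caco-2 response (log2 units) with its 95% confidence interval for 9 genes, for CoCl2 (blue) and OD (orange), with filled points where the FDR was under 0.05. The OD point of SLC39A10 lies at 1.15, and the largest negative difference is that of SLC39A4 with CoCl2 at -0.97; SLC30A10, near 0 in HT-29, is left out.

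The metallothioneins, which buffer zinc and are the best known MTF1 targets, were read as a companion list of 11 genes. With CoCl2 all 6 members tested in Caco-2 were called higher (median log2 fold change 6.14, or 5.43 with MT1H at its lower bound), and 5 of 6 in HT-29 (median 3.84), where MT3 was lower, beside 23.4% and 41.3% of all genes called. MT1H held 0 counts in Caco-2 control, 0 to 2 with OD and 41 to 91 with CoCl2. MT1G held 2 to 5, 2 to 5 and 132 to 224 in those groups. In HT-29 MT1G held 6 to 9, 1 to 3 and 151 to 177. These genes entered the test through their CoCl2 libraries, so the filter on low counts favoured their calls. Summed over the list, the level was 9.49 to 19.0 CPM in Caco-2 control, 748 to 820 with CoCl2 and 24.8 to 27.8 with OD. In HT-29 the sums were 56.0 to 64.5 CPM in the controls, 754 to 875 with CoCl2 and 18.1 to 24.4 with OD. The sums with OD therefore lay above the controls in Caco-2 and below them in HT-29. In Caco-2 only 2 of 6 tested metallothioneins rose with OD, beside 50.4% of all genes past the FDR. Of these only MT2A was called, beside 11.7%. The other 4 did not pass, and MT1E among them lay lower (-0.90, edgeR FDR 0.053). MT2A rose with OD in Caco-2 (1.503, SE 0.19, edgeR FDR 3.7e-07) and fell in HT-29 (-1.10, SE 0.10, FDR 2.6e-10). In HT-29 4 of 6 tested metallothioneins were called lower with OD, beside 17.1% of all genes called in either direction. They were MT1E (-1.82), MT3 (-1.64), MT1G (-1.48) and MT2A. MT1G went from 6 to 9 counts per library to 1 to 3, and MT3 from 12 to 26 to 3 to 8. The calls of MT1G and MT3 therefore rest on few counts. Short near-identical copies in this family share reads, so values of single genes are uncertain.

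Of the 15 remaining ZnT and ZIP genes, 4 rose, 4 fell and 5 did not pass among 13 tested with CoCl2 in Caco-2, and 5 rose, 4 fell and 2 did not pass among 11 in HT-29. For OD, 4 rose, 3 fell and 6 did not pass in Caco-2, against 5, 3 and 3 in HT-29. Over all genes, the shares past the FDR were 64.7% and 82.8% with CoCl2 and 50.4% and 68.8% with OD. In Caco-2 and HT-29, 1 and 2 of the list were called with CoCl2, beside 23.4% and 41.3% of all genes, and 2 and 2 with OD, beside 11.7% and 17.1%. Their medians (0.08 and -0.12 with CoCl2, 0.03 and 0.20 with OD) lay beside all-gene medians of -0.03, -0.03, -0.02 and 0.01. SLC30A4, a vesicular zinc transporter, was called higher with OD in both lines (1.24 in each, edgeR FDR 0.0092 in Caco-2 and 5.6e-05 in HT-29) from 10 to 32 counts in the control libraries. SLC30A6, the partner with which SLC30A5 forms a heterodimer, was called higher with CoCl2 in HT-29 (1.18, SE 0.05), from 48.4 ± 2.26 to 109 ± 1.78 CPM (SD, n = 3). SLC30A2, a vesicular transporter, was called lower in HT-29 with both treatments, from 25 to 45 counts per library to 0 to 2 with CoCl2 and 6 to 10 with OD. SLC39A2 was called higher with both treatments in Caco-2, where its controls held 0 to 1 count and the treated libraries 5 to 15 with CoCl2 and 14 to 21 with OD. SLC39A2 entered the test through its OD libraries and SLC30A2, in HT-29, through its controls. The filter on low counts therefore favoured the OD call of SLC39A2 and the calls of SLC30A2.

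Of 8 further genes of divalent metal transport, SLC11A2, the proton-coupled iron importer DMT1, was called in 3 of 4 comparisons against control. In Caco-2 its level was 206 ± 15.98 CPM (SD, n = 3) in the controls, and CoCl2 brought it to 587 ± 40.8 (log2 fold change 1.51) and OD to 576 ± 32.9 (1.48). The HT-29 controls held 110.9 ± 7.35 CPM, against 343 ± 18.5 after CoCl2 (1.63) and 199.8 ± 13.3 after OD (0.85). TMEM163, a zinc effluxer, was called lower in Caco-2 with CoCl2 (-2.48, SE 0.26) and OD (-1.03, SE 0.22). TRPV6, a calcium channel, was called lower with CoCl2 in HT-29 (-3.82, SE 0.32), and ATP2C1, the calcium and manganese pump of the Golgi, higher (1.00, SE 0.05). Over the list, 4 rose and 2 fell of 7 tested with CoCl2 in Caco-2, 2 rose and 4 fell with OD, and in HT-29 the counts of 6 tested were 4 and 2 with CoCl2 and 3 and 1 with OD, to be read against the same shares of all genes past the FDR (64.7%, 50.4%, 82.8% and 68.8%). With CoCl2 the list's median was 0.30 (Caco-2) and 0.52 (HT-29), and with OD -0.28 and 0.16, respectively.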

How the data were processed

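RNA was extracted from 18 cultures of established cell lines, libraries were made with a stranded mRNA kit, and single-end reads were sequenced. The authors mapped reads to GRCh38.p13 with STAR 2.7.5b after FastQC 0.11.9 and cutadapt 2.10, per the submitters' processing notes, and deposited raw counts per gene symbol. The counting tool and its strand setting are not given in the sources used here. The authors also deposited log2(RPKM + 1) values, which were back-transformed to RPKM to order genes by level within a line. These were scaled within each line, with genes that failed the authors' filter listed at 0. The miRNA tables were not used, and no column was left unmapped (0). The members and the companion lists were chosen with earlier results of these data known.

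Counts were tested with edgeR 4.0.16 (R 4.3.3) after filterByExpr and TMM scaling, with glmQLFit and two-sided glmQLFTest on the 9 libraries of a line and 1 coefficient per group. Comparisons of lines used all 18 libraries. Over all genes tested, p-values received Benjamini-Hochberg adjustment, with an FDR of 0.05 and, for calls, an absolute log2 fold change over 1. All 10 genes, plus the 3 largest called changes of each companion list, could be named. Some metallothioneins outside that rule were also named, such as MT2A with OD in HT-29. The scripts were tested on simulated data. Alternatives were library totals without TMM, no filter or a stricter one (1 CPM in 3 libraries), a replicate block, DESeq2 1.42.0, limma 3.58.1 on the log2 values, a joint fit, FDR alone, and leaving out each replicate. Gene overlaps were read from GENCODE release 44 (GRCh38).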

Additional observations from a re-analysis of the deposited data

Results flagged for a closer look

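The response of SLC39A10 to OD differed between the lines by 1.15 log2 units (HT-29 minus Caco-2, SE 0.13, edgeR FDR 3.3e-09 for the interaction). All 3 OD libraries lay below the 3 controls in Caco-2 and above them in HT-29. This result was singled out because a direct test found a difference between the lines and the called size exceeded 1. It ranged from 1.03 to 1.22 over 17 alternatives. Line, differentiation and medium cannot be told apart in it. Groups of 3 libraries were too small for a test of single outlying values.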

How the results depend on the processing

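Counts of called members depended mainly on the fold threshold. By FDR alone they were 7 in place of 4 (CoCl2, Caco-2), 3 in place of 0 (OD, Caco-2), 8 in place of 4 (CoCl2, HT-29), 6 in place of 0 (OD, HT-29), 7 in place of 1 and 8 in place of 3 (CoCl2 against OD in Caco-2 and HT-29), 4 in place of 0 and 4 in place of 1 (line difference for CoCl2 and OD) and 10 in place of 6 (control lines). With limma, 2 were called with CoCl2 in each line. With library totals alone, 1 member (SLC39A4) was called in the line difference for CoCl2. That scaling gave 6 in place of 4 with CoCl2 in HT-29 and 4 in place of 3 for CoCl2 against OD in HT-29. In Caco-2 with CoCl2 the 4 called under it were not the same genes. Leaving out single replicates gave 3 to 5 and 4 to 5 with CoCl2 in Caco-2 and HT-29, 0 to 1 in the line difference for CoCl2 and 6 to 7 between controls, and no other count moved. Where an arm then held fewer libraries, the spread was pooled over groups.

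Reversed signs arose among small or unpassed differences, with 1 exception. With library totals alone they were -0.18 (SLC30A5, CoCl2, Caco-2), -0.0073 (SLC30A1), -0.0039 (SLC39A6) and -0.10 (SLC39A14, all OD, Caco-2), -0.12 (MTF1, OD, HT-29) and, the exception past the FDR, -0.24 (SLC30A5, CoCl2 against OD, HT-29). With DESeq2 they were -0.0050 (MTF1, OD, HT-29), 0.012 (SLC39A6, CoCl2 against OD, HT-29) and 0.033 (MTF1, line difference for CoCl2), and with limma -0.0068 (MTF1, OD, HT-29). Without single replicates the ranges that crossed 0 were -0.051 to 0.0059 (SLC39A14) and -0.23 to 0.0044 (SLC39A4) with CoCl2 in Caco-2, -0.056 to 0.097 (MTF1) and -0.10 to 0.0059 (SLC39A4) with OD in HT-29, -0.061 to 0.033 (SLC39A6, CoCl2 against OD, HT-29), -2.23 to 0.83 (SLC30A10) in the line difference for CoCl2, and -0.084 to 0.13 (SLC30A1) and -2.72 to 0.045 (SLC30A10) in that for OD. The cause was not tested.

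Replicate numbers were shared between groups, but same-numbered libraries did not deviate together (0 of 9 pairs over 0.1 in each line, r from -0.05 to 0.07 in Caco-2 and from -0.04 to 0.02 in HT-29). With the replicate block the SLC30A1 difference between controls was called (-1.02, 7 members in place of 6), that of SLC39A10 missed the FDR (-0.15, FDR 0.22), and SLC30A10 in the line difference for CoCl2 turned to 0.037. Depth limited SLC30A10, at 0 to 3 counts in HT-29, and SLC39A8 and SLC30A10 in Caco-2, at 23 to 114 counts per library.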

Other observations

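For each member the genes with the most similar course over the 18 libraries were sought by Pearson's r of log2 CPM centred within each line, among genes with a mean of at least 5 CPM. These libraries fall into treatment groups, so r orders genes and describes these cultures only. Nearest to MTF1 stood MALT1 (r = 0.985), a paracaspase of NF-kB signalling, and PPME1 (0.985). Nearest to SLC30A1 were HSPA1B (0.993), an inducible heat shock protein that has a near-identical copy, and NAA25 (0.986). SLC30A5 lay closest to HSF2 (0.983), a heat shock transcription factor. SLC39A10 lay closest to THBS3 (0.982), a thrombospondin, and APBB2 (0.977). The lowest best values belonged to SLC39A6 (NMD3, 0.869) and SLC30A10 (CAMKV, 0.813).

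Summed over the 10 members, the level was 1028 to 1082 CPM in Caco-2 control, 1094 to 1147 with CoCl2 and 1030 to 1077 with OD. In HT-29 the sums were 356 to 368 CPM in the controls, 452 to 480 with CoCl2 and 370 to 381 with OD. Genes with high CPM weigh most in these sums. With CoCl2 in HT-29, 3 of 9 tested members rose and 5 fell. There mean SLC30A1 went from 44.3 to 153 CPM and mean MTF1 from 44.7 to 98.1. SLC39A14 alone averaged 586 CPM in Caco-2 control. CPM is not scaled by length, so long transcripts weigh more in these sums.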
